A study of Mus musculus with 8 samples.

Results

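The regions described here are the open chromatin regions of the mouse Zfp genes, the zinc finger protein genes whose symbol is Zfp followed by digits. A region was a stretch covered by at least 1 peak after the 8 deposited peak lists had been merged wherever peaks shared at least 1 bp, on the 19 autosomes and X. It counted as a Zfp region when its strongest summit lay inside a protein-coding Zfp gene or within 1 kb of it. This gave 1033 Zfp regions among 138385 regions in all. They belonged to 333 of the 367 Zfp genes, and 34 Zfp genes had none. Of the Zfp regions, 62 also lay inside or within 1 kb of another protein-coding gene, and 33 lay at an end of another gene. Each was counted once, for a Zfp gene. A region was called a gene end region when its summit lay within 1 kb of either end of the gene (337 regions), and a body region otherwise (696 regions). Genes with 5 or more Zfp genes inside 1 Mb were called clustered (176 genes in 17 clusters, with 315 regions), and the others single (191 genes, with 718 regions). The 11 Zfp genes on chromosome 18, with 116 regions, enter every count and are not described singly.

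Most Zfp proteins bind DNA through arrays of C2H2 zinc fingers, and many also carry a KRAB domain that recruits the corepressor TRIM28 (KAP1). TRIM28 brings the histone methyltransferase SETDB1, which deposits H3K9me3, the mark read by HP1 proteins at heterochromatin. The KRAB zinc finger genes lie in tandem arrays made by gene duplication, and in mammalian cells the bodies of these arrays are themselves known to carry H3K9me3. DEK is an abundant chromatin protein that has been linked to HP1 and to the integrity of heterochromatin, which raises the question whether zinc finger clusters open when DEK is removed or its phosphorylation sites are changed.

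ATAC-seq, in which a transposase inserts adapters into open chromatin, was applied to L-GMPs (leukemic granulocyte-macrophage progenitors). These had been sorted from the bone marrow of mice with MLL-AF9-driven acute myeloid leukemia, as cells without lineage markers and Sca-1 and with c-Kit, CD34 and CD16/32 on their surface. The knockout group (KO) held KO 1 and KO 2, which were Dek fl/fl with MX1-Cre, and KO 3, which was Dek fl/fl;Tie2-Cre. The serine mutant group (4S-A) held 2 libraries with alanine at DEK residues 306, 308, 311 and 312. The control group (FL) held FL 1 and FL 2, which were Dek fl/fl without a Cre in the labels, and FL 3, which was Dek+/+. All groups carried the MLL-AF9 leukemia. The design text of the series names Tie2-Cre as the only Cre, and the peak names inside the lists of KO 1 and KO 2 carry the numbers 2 and 3, so these libraries are named by their labels. Mx1-Cre is interferon inducible and Tie2-Cre is active in endothelial and hematopoietic cells. The labels describe KO 1, KO 2, FL 1 and FL 2 together (here the Mx1-Cre set) and KO 3, FL 3 and both 4S-A libraries together (here the Tie2-Cre set). They do not say whether replicates were separate animals, so p-values measure only the spread between these libraries. About 5000 cells entered each reaction.

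Read depth is unknown, and list length is the only depth shown. The deposited lists of the KO libraries held 56383, 74190 and 93204 peaks, those of the 4S-A libraries 104758 and 94877, and those of the FL libraries 51653, 55050 and 91744. The 4 lists of the Tie2-Cre set were thus all longer than the 4 of the Mx1-Cre set, and set and list length cannot be told apart. Of 8 marker genes of L-GMPs, 7 had a gene end region with a peak in all 8 libraries, and the exception, Fcgr3, had one in 7. Of the markers of B cells (3), T and NK cells (3), erythroid cells (3) and endothelial and stromal cells (4), Epor alone had a gene end region in all 8 libraries. A gene end region in at least 1 library was found for 2 of the 3 B cell, 1 of the 3 T and NK cell, 2 of the 3 erythroid and all 4 endothelial and stromal markers, and Col1a1 and Cxcl12 had one in 7. Dek had no gene end region assigned to it, so these lists do not check the knockout.

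A set of 5 promoter windows are printed to show Zfp promoters with a peak in all libraries and in few, 4 of them from the group of neighbouring Zfp genes on chromosome 2 described below for its regions with peaks in the 4S-A libraries alone, and that of Zfp866, whose gene end was among the strongest in every library. They are RefSeq windows of GRCm38.p6 (the assembly also called mm10), from 250 bases before to 50 bases after a start. Zfp120 is at chr2:150136629-150136928 (minus strand), Zfp937 at chr2:150217849-150218148 (plus strand), Zfp442 at chr2:150451452-150451751 (minus strand), Zfp345 at chr2:150485014-150485313 (minus strand) and Zfp866 at chr8:69774862-69775161 (minus strand). Capitals mark matches on either strand to GGGCGG (the GC box of SP and KLF factors), CCGGAA (the ETS core), TGACGTCA (the cyclic AMP response element) and CCAAT (the NF-Y box), and matches were allowed to overlap.
Zfp120: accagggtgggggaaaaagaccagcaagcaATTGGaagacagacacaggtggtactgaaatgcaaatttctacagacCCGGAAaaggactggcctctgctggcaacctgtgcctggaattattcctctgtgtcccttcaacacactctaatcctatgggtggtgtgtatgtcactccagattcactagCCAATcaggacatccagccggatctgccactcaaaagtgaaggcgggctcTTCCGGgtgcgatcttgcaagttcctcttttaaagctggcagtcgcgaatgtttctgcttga
Zfp937: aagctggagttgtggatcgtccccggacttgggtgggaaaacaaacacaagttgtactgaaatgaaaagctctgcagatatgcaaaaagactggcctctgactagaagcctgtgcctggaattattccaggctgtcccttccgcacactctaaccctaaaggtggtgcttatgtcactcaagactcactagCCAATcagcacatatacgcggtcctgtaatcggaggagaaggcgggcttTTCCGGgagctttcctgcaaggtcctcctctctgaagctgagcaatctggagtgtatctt
Zfp442: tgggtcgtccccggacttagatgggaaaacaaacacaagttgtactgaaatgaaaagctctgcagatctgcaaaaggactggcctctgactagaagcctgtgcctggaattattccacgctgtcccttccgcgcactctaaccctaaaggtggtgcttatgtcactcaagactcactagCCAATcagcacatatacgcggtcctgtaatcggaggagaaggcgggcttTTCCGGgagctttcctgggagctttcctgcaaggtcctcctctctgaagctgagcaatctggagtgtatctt
Zfp345: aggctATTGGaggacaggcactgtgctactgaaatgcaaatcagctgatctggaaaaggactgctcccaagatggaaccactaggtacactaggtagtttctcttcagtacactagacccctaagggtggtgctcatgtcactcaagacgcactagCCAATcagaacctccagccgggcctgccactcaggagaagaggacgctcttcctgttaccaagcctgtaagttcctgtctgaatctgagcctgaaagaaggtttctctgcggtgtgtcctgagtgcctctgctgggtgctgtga
Zfp866: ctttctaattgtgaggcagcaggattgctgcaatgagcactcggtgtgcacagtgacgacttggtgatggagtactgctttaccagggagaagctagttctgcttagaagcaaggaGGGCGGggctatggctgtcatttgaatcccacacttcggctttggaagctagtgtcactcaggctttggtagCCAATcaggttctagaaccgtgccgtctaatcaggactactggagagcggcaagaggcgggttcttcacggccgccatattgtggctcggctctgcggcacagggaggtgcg

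Each of these 5 windows held CCAAT on the gene's own strand, and in all 5 it was followed by CAG. The windows of Zfp120 and Zfp866 had a peak in all 8 libraries, that of Zfp442 in 4, that of Zfp937 in 3 and that of Zfp345 in 2. They held 7, 13, 10, 8 and 4 CpG dinucleotides in that order. The windows of Zfp937 and Zfp442 shared an identical stretch of 112 bases, and how reads that fit both copies were placed is not given in the sources used here. The longest stretch that Zfp345 shared with any of the other 4 windows was 15 bases.

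The longer word CCAATCAG was searched after these sequences had been seen, together with TAGCCAATCAG, the longest stretch common to all 5. It occurred on either strand in 55 of 368 Zfp windows (14.9%), against 974 of 20677 windows of the other protein-coding genes (4.71%), and in 50 of the 55 Zfp windows it lay on the gene's strand. TAGCCAATCAG occurred in 21 Zfp windows (5.71%), always on the gene's strand, and in 69 windows of other genes (0.334%). The 5 printed windows are among the 55 and the 21, and their matches were given by the choice of the words. All of them but that of Zfp866 are windows of single genes. In Zfp genes by placement, CCAATCAG lay in 11 of 167 clustered windows (6.59%) and in 44 of 201 single ones (21.9%). It lay in 13.3% of Zfp windows with a peak in all 8 libraries and in 13.6% of Zfp windows with no peak, while TAGCCAATCAG lay in 3.03% and 11.9% of them. The match is a description of letters shared by related genes, not of a bound site.

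Zfp gene ends were open in most libraries, and more often than those of other genes. Of the 337 gene end regions, 244 (72.4%, exact Clopper-Pearson 95% interval 67.3 to 77.1) had a peak in all 8 libraries, against 9575 of 15785 gene end regions of the other protein-coding genes (60.7%). Clustered Zfp genes had 122 of 156 gene end regions in all 8 libraries (78.2%) and single ones 122 of 181 (67.4%). Body regions were shared far less often: 148 of 696 Zfp body regions were in all 8 libraries (21.3%), against 12705 of 65865 body regions of other genes (19.3%). The share was almost the same in clustered (21.4%) and single (21.2%) Zfp genes. Intervals on these shares cover counting error only. Zfp regions that were also at an end of another gene were kept in the Zfp shares.

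Regions shared by all libraries lay mostly at the start of the gene. Gene end regions whose summit lay within 1 kb of an annotated RefSeq start had a peak in all 8 libraries in 191 of 235 cases (81.3%). Those farther than 1 kb from every listed start of their gene had one in 13 of 44 (29.5%). This second class can also hold starts that are not listed, since regions at both ends of Zfp638 fell in it. A further 58 gene end regions belonged to genes with no RefSeq window. Among body regions, 56 lay within 1 kb of an annotated start inside the gene, and 35 of these were in all 8 libraries (62.5%), compared with 113 of the other 640 (17.7%). Body regions of genes with no RefSeq window were counted among the other 640. In the 264 Zfp windows with a peak in all 8 libraries, the strongest summit lay at a median of -38 bases from the start, with an interquartile range of -81.3 to -0.5 bases, which is just upstream.

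RefSeq windows were found for 305 of the 367 Zfp genes (368 windows). They had a peak in all 8 libraries in 264 cases (71.7%), against 10246 of 20677 windows of other protein-coding genes (49.6%). Open Zfp windows were poorer in CpG than open windows of other genes, with a median of 17 CpG dinucleotides against 22 and a median GC content of 56.7% against 62.3%. GGGCGG lay in 49.6% of open Zfp windows and in 69.8% of open windows of other genes, while CCGGAA lay in 40.2% of open Zfp windows and in 30.7% of the others. Over all 21045 protein-coding windows, GGGCGG was in 46.7%, CCGGAA in 18.9%, CCAAT in 38.5% and TGACGTCA in 2.26%. CCAAT lay in 45.5% of open Zfp windows and in 49.2% of Zfp windows with no peak.

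At the same CpG count, Zfp windows were open more often than others. With 5 to 9 CpG dinucleotides, 54 of 93 Zfp windows had a peak in all 8 libraries (58.1%, 95% interval 47.4 to 68.2), against 735 of 3054 other windows (24.1%, 22.6 to 25.6). With 10 to 14, the shares were 75% of 64 Zfp windows (62.6 to 85.0) and 57.5% of 2042 others (55.3 to 59.6). With 15 to 19 they were 80.9% of 68 Zfp windows and 74.3% of 2246 others, and there the intervals overlapped. Windows of one gene can share a peak, so the windows are not independent, and no test was made.

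**Figure D1:**
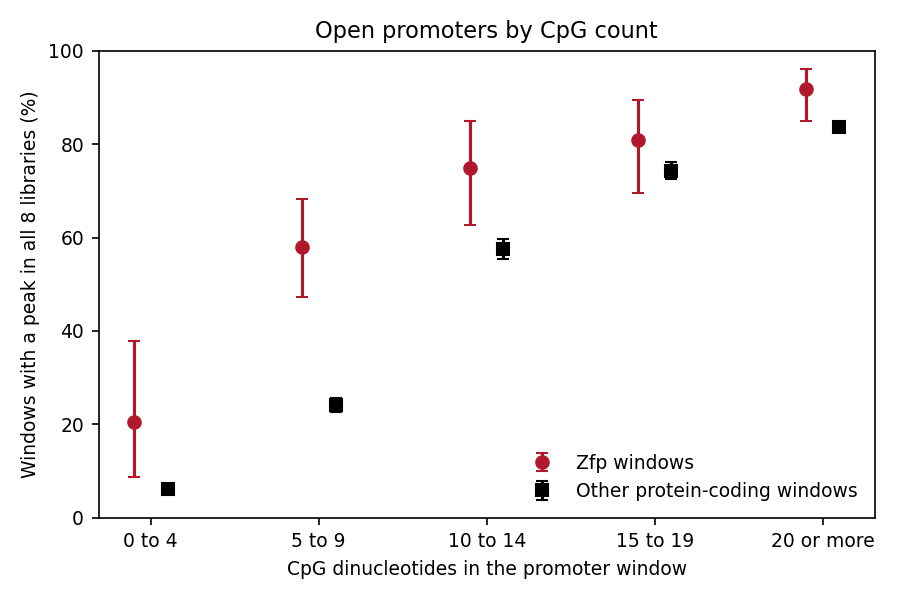
Share of RefSeq promoter windows with a peak in all 8 libraries (percent, y axis) by the number of CpG dinucleotides in the 300-base window (x axis), for Zfp windows (red circles) and windows of the other protein-coding genes (black squares), with exact 95% binomial intervals. The Zfp share was above the other in each class, 58.1% against 24.1% at 5 to 9 CpG dinucleotides, and the intervals overlapped at 15 to 19.

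The strongest gene end regions belonged to Zfp142, Zfp654, Zfp277, Zfp866, Zfp869 and Zfp513. Those of Zfp142, Zfp654, Zfp277 and Zfp513 also lay inside or within 1 kb of another protein-coding gene. Strength is given as the percentile of a peak's −log10 q within its own list, where 100 is the strongest peak of that library, because the deposited values share no scale between libraries. This percentile depends on list length, because a longer list can hold more weak peaks below a given region. Differences between libraries of unlike list length are thus not differences in openness alone. The Zfp142 gene end (chr1:74587464-74588644) was at percentiles 99.4, 99.5 and 99.8 in the KO libraries, at 99.98 and 99.7 in the 4S-A libraries and at 99.2, 97.8 and 99.8 in the FL libraries. The Zfp866 gene end (chr8:69774505-69775443), shown above by its promoter, was at 97.7, 98.7 and 99.8 in the KO libraries, at 99.8 and 99.95 in the 4S-A libraries and at 98.5, 99.1 and 99.9 in the FL libraries. The groups overlapped at both. Zfp866 and Zfp869 lie in the same cluster on chromosome 8. The strongest body regions, in Zfp41, Zfp446, Zfp574, Zfp771, Zfp286 and Zfp341, reached mean percentiles between 95.8 and 99.6, and those of Zfp771 and Zfp341 lay at an annotated start inside the gene. Zfp574 and Zfp286 had no RefSeq window, so their regions could not be placed against a start.

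The Zfp genes with known repressor roles differed from one another in the openness of their gene ends. Zfp809, which silences murine leukemia proviruses in mouse embryonic cells, had a gene end region in all 8 libraries (chr9:22224667-22226289) at percentiles 93.3, 94.96 and 92.7 in KO, 96.2 and 95.2 in 4S-A, and 84.3, 91.4 and 95.5 in FL libraries. Zfp568, which represses a placental Igf2 transcript in the mouse embryo, had its gene end region (chr7:29983402-29984481) at 97.2, 97.0 and 98.1 in KO, 94.6 and 95.3 in 4S-A, and 97.9, 96.3 and 98.1 in FL libraries. Zfp932, a repressor of endogenous retroviruses, was also open in all 8. Zfp445, which with Zfp57 protects genomic imprints, had its gene end region (chr9:122886479-122887853) at 23.3, 33.9 and 65.3 in KO libraries, at 56.2 and 56.5 in 4S-A libraries, and at 16.9 and 46.9 in FL 2 and FL 3, with no peak in FL 1. Its percentiles were higher in every library of the Tie2-Cre set than in any of the Mx1-Cre set, whose lists were all shorter. Zfp57, Zfp708 and Zfp42 (Rex1, a marker of pluripotent cells) had no gene end region. Body regions at an annotated start inside Zfp708 (chr13:67080625-67081747) and Zfp445 (chr9:122865488-122866410) had a peak in all 8 libraries. The gene end region of Zfp445 given above lay more than 1 kb from every listed start of the gene.

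Of 15 Zfp genes with a characterised regulatory role, 11 had a gene end region in all 8 libraries, and Zfp217, Zfp335, Zfp423 and Zfp711 had none. Zfp217 (chr2:170130841-170131683) and Zfp335 (chr2:164911034-164912021) each had a body region at an annotated start inside the gene, with a peak in all 8 libraries. Zfp143, an activator bound at many promoters, lay between percentiles 97.2 and 99.8 over the 8 libraries (chr7:110060749-110062281). Zfp64, whose human counterpart is known to drive expression of the MLL gene in MLL-rearranged leukemia cells, had the stronger of its 2 gene end regions (chr2:168954575-168956185) at 90.6, 83.9 and 86.6 in KO, 93.2 and 93.1 in 4S-A, and 66.6, 80.5 and 88.9 in FL libraries. The KO and FL values overlapped, and both 4S-A values were above the FL values, in lists that were also longer. Zfp36 (tristetraprolin), which promotes decay of cytokine mRNAs, was the weakest of these gene ends, between 39.3 and 54.6. The genes of the silencing machinery itself were likewise open: 21 of 25 partners had a gene end region in all 8 libraries. Trim28, the KRAB corepressor, was at 84.0, 86.8 and 83.7 in KO, 87.1 and 85.6 in 4S-A, and 90.1, 89.2 and 89.6 in FL libraries, so all KO and 4S-A values were below all FL values at this gene end (chr7:13023053-13025196). Ranked among the regions with a peak in all 8 libraries, as described below, it differed by -12.8 points in KO minus FL (SE 2.93, limma adjusted p = 0.35) and by -8.93 points in 4S-A minus FL (SE 3.88, limma adjusted p = 0.49), and neither passed.

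The longer lists held more Zfp regions, in each genotype. A peak was present in 513, 605 and 725 of the 1033 Zfp regions in the KO libraries, in 781 and 745 in the 4S-A libraries and in 486, 507 and 708 in the FL libraries. The coverage was then compared with that of the other protein-coding genes' regions in the same library, weighted to the same shares of gene end and body regions. This coverage excess was 2.34 ± 1.97 percentage points in KO and 2.82 ± 3.08 points in FL libraries (SD, n = 3 each), a difference of -0.486 points that was smaller than the spread between libraries. The excess still went with list length: it was 2.72 to 4.75 points in the 4 shorter lists and -0.843 to 1.99 points in the 4 longer ones. On lists of equal length KO minus FL was -1.43 points. Inside the Mx1-Cre set KO minus FL was -1.20 points and inside the Tie2-Cre set it was 0.937 points. The 4S-A libraries had an excess of 0.573 ± 2.00 points (SD, n = 2), compared with -0.732 points in FL 3, a difference of 1.30 points. The 4S-A libraries themselves were at -0.843 and 1.99 points, on either side of FL 3. Leaving out 4S-A 2 brought the difference to -0.111 points, and on lists of equal length it was -1.41 points.

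By coverage, no opening of clusters relative to single genes was detectable in either comparison. At gene ends this measure had little room for a gain, since clustered coverage was already 91.7% in FL 3. The gap also went with list length, smaller in every library of the Tie2-Cre set than in any of the Mx1-Cre set. Median ranks of clustered gene ends, given below, were higher in KO than in FL inside both sets, which was not tested. In gene end regions, coverage of clustered minus single Zfp genes was 11.4, 6.05 and 3.27 points in the KO libraries, 1.70 and 3.07 points in the 4S-A libraries and 9.12, 8.20 and 6.03 points in the FL libraries. The KO mean was 6.91 ± 4.13 points and the FL mean 7.78 ± 1.59 points (SD, n = 3 each), a difference of -0.876 points. KO minus FL was 0.0673 points in the Mx1-Cre set, -2.76 points in the Tie2-Cre set and 0.83 points on lists of equal length. The 4S-A mean was 2.39 ± 0.969 points (SD, n = 2), against 6.03 points in FL 3, a difference of -3.65 points, which was -1.32 points on lists of equal length. In body regions it was 1.40, -5.79 and -6.85 points in KO libraries, -6.57 and -5.64 points in 4S-A libraries, and 1.12, -0.0457 and -4.62 points in FL libraries. KO minus FL was -2.57 points (-3.75 ± 4.49 in KO and -1.18 ± 3.03 in FL, SD, n = 3 each), which is within the spread over both sets. The sign was the same inside the Mx1-Cre set (-2.73 points) and the Tie2-Cre set (-2.23 points), and on lists of equal length the difference was -6.12 points. In 4S-A minus FL 3 it was -1.49 points. A gain of clustered over single genes was thus not detectable in body regions with DEK removed or mutated. The 4S-A value in body regions changed sign under other settings: it was 2.80 points when 3 genes within 1 Mb made a cluster, which moved the group on chromosome 2 described below into the clusters, 0.144 points with 5 genes within 2 Mb, and 3.03 points with peaks of −log10 q of at least 5.

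**Figure D2:**
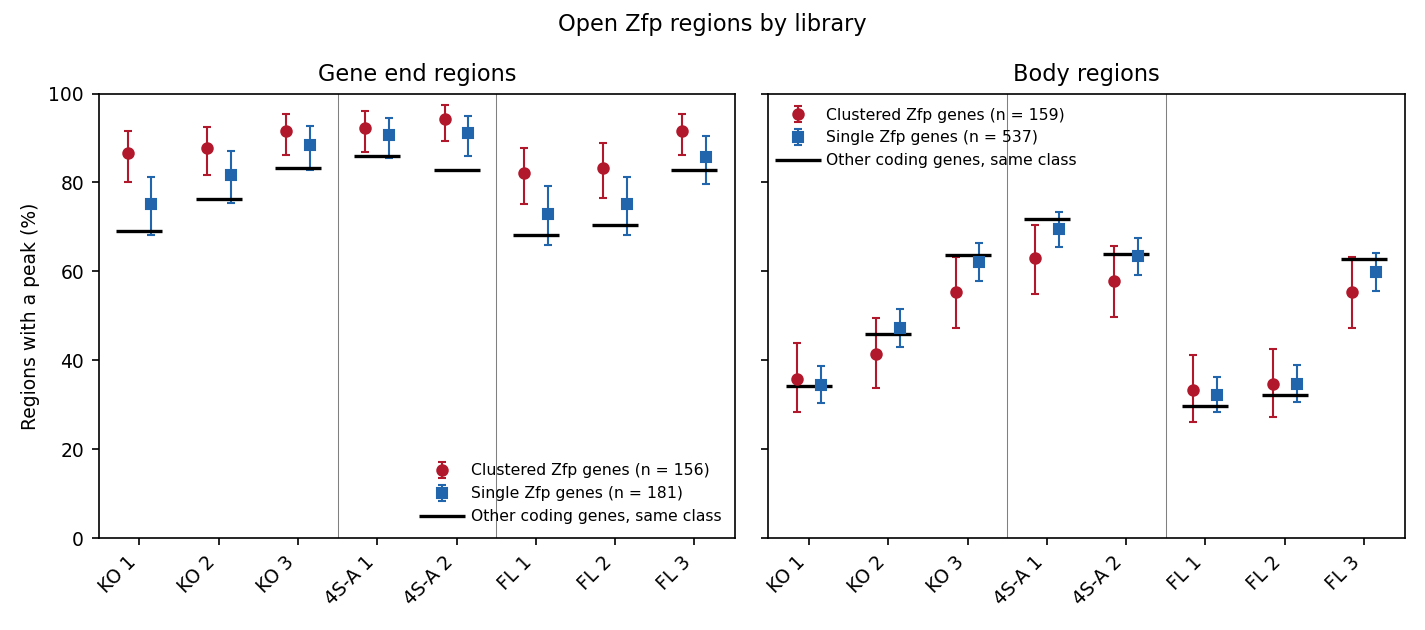
Percent of Zfp regions with a peak (y axis) in each library (x axis), for gene end regions (left) and body regions (right) of clustered (red circles) and single (blue squares) Zfp genes, with exact 95% binomial intervals, beside the percent in the same class of the other protein-coding genes (black bars). Clustered gene ends stood above the black bar in all 8 libraries, by 6.26 to 17.4 points, and body regions of clustered genes were below it in both 4S-A libraries, in KO 2, KO 3 and FL 3.

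The clusters spanned 15.9 Mb together and held 1050 regions of any gene. These were 0.954%, 0.869% and 0.850% of a library's regions in KO, 0.790% and 0.836% in 4S-A, and 1.02%, 0.964% and 0.832% in FL libraries. The KO mean of 0.891% ± 0.0557 and the FL mean of 0.940% ± 0.0981 (SD, n = 3 each) differed by less than the spread. The share was lowest in the longest list, that of 4S-A 1.

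Each cluster is described here by the number of its Zfp regions with a peak. On chromosome 7 the 8 clusters ran from Zfp628 to Zfp580 (chr7:4915181-5053723), Zfp787 to Zfp772 (chr7:6131489-7209998), Zfp551 to Zfp446 (chr7:12412549-12985717), Zfp180 to Zfp526 (chr7:24081877-25227876), Zfp60 to Zfp36 (chr7:27731409-28379228), Zfp84 to Zfp146 (chr7:29768552-30169775), Zfp141 to Zfp819 (chr7:42473386-43618279) and Zfp553 to Zfp646 (chr7:127233061-127885996). The others ran from Zfp990 to Zfp933 (chr4:145510759-147849126), Zfp786 to Zfp775 (chr6:47815536-48621548), Zfp930 to Zfp866 (chr8:69209018-69774911), Zfp317 to Zfp846 (chr9:19622038-20605404), Zfp653 to Zfp810 (chr9:22055411-22307814), Zfp640 to Zfp273 (chr13:66670274-67827000), Zfp623 to Zfp647 (chr15:75940949-76925693), Zfp160 to Zfp40 (chr17:21008941-23193284) and Zfp871 to Zfp414 (chr17:32765496-33631716). In most of them the Tie2-Cre set held more regions than the Mx1-Cre set in each group. The chromosome 13 cluster, with 29 regions, had a peak in 22, 22 and 24 of them in KO, in 25 and 27 in 4S-A and in 19, 19 and 24 in FL libraries. The Zfp160 to Zfp40 cluster, with 28 regions, had 20, 21 and 22 in KO, 27 and 24 in 4S-A and 17, 20 and 22 in FL libraries. The KO values overlapped those of FL in both, and the 4S-A values were above all FL values in both. Among the other clusters, this held only for Zfp84 to Zfp146. Both 4S-A values were below FL 3 in the clusters that began at Zfp786, Zfp553, Zfp930, Zfp317, Zfp623 and Zfp871. In Zfp623 to Zfp647, for example, they were 6 and 6 against 8. In 4 of the 21 RefSeq windows of the Zfp160 to Zfp40 cluster, a stretch of 100 bases was identical to one in another gene's window.

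**Figure D3:**
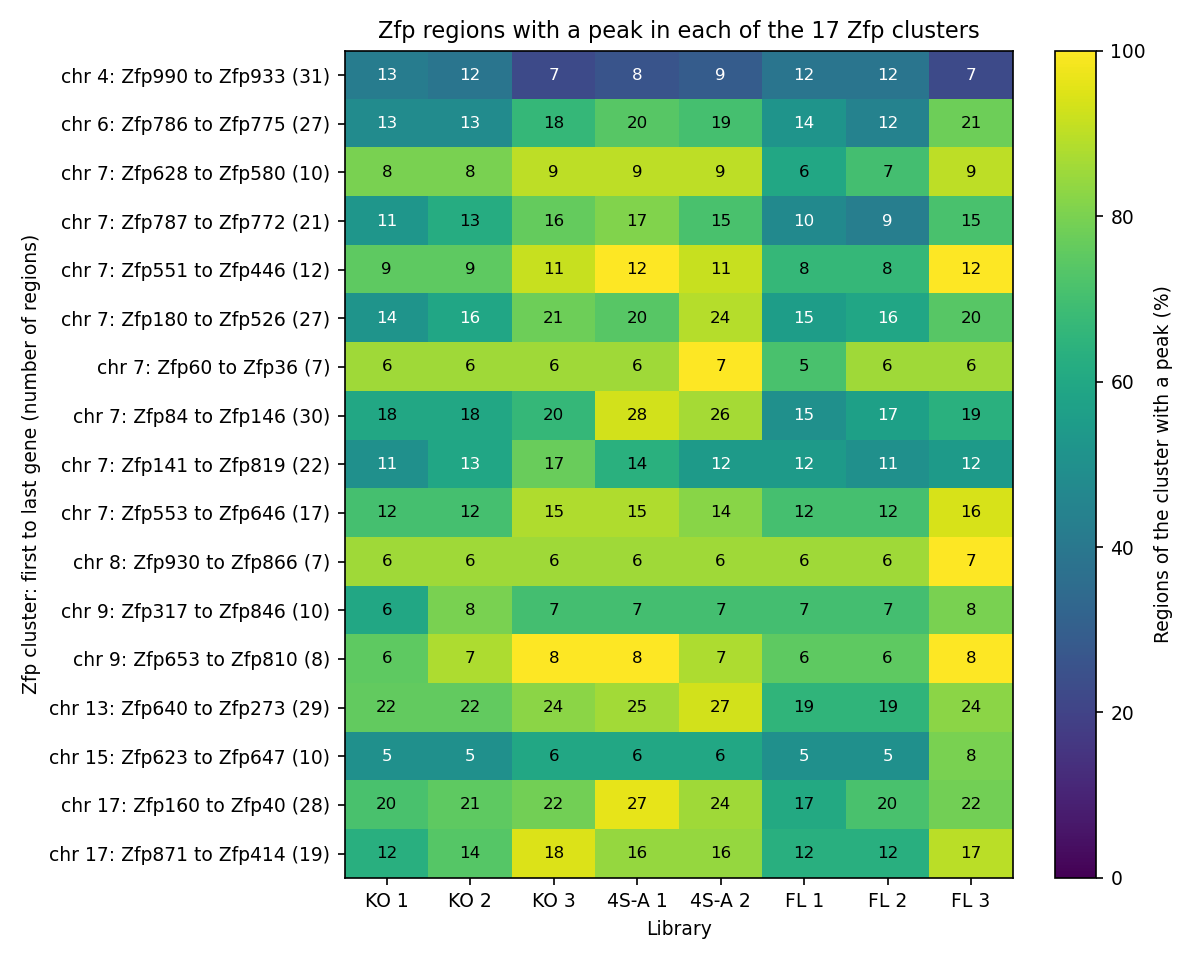
Zfp regions with a peak in each of the 17 Zfp clusters (rows, with the number of regions in brackets) and 8 libraries (columns). Numbers are counts and the color is the percent of the cluster's regions. The Zfp84 to Zfp146 cluster had 28 and 26 of 30 regions in the 4S-A libraries, against 15, 17 and 19 in the FL libraries, and the Zfp990 to Zfp933 cluster had 7 to 9 of 31 regions in the Tie2-Cre set, against 12 or 13 in the Mx1-Cre set.

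The chromosome 4 cluster went against this order. Its 16 genes, from Zfp990 to Zfp933, had a region in 7 cases. Of its 31 regions, a peak was present in 13, 12 and 7 in KO, in 8 and 9 in 4S-A and in 12, 12 and 7 in FL libraries, so the 4 shorter lists held more of it than the 4 longer ones. Regions with peaks in the Mx1-Cre set alone made up 19 of the 31 (61.3%), compared with 14 of the 284 regions of the other clusters (4.93%) and 13550 of all 138385 regions (9.79%). They were weak, and none passed the percentile of 29.6. KO and FL libraries of the same set had nearly the same number here. In all, 2 of the 31 regions had a peak in all 8 libraries, in the body of Zfp984 (chr4:147809182-147810285) and at the end of Zfp933 (chr4:147848039-147849002). In 4 of the cluster's 15 RefSeq windows a stretch of 100 bases was identical to one in another gene's window, which leaves the placement of reads among the copies uncertain.

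Presence of a peak in every library of a group and in none of the other gave the changes between KO and FL. None of the 419 Zfp regions with a peak in all 3 FL libraries was lost from all KO libraries, which allows a share of up to 0.716% (3 counts of the total), and over all regions the background was 0.214% (81 of 37770). Among 473 Zfp regions with a peak in all 3 KO libraries, 1 was gained (0.211%), against a background of 0.754% (344 of 45634). The gained region lay in the body of Zfp568 (chr7:30012983-30013208). It was at percentiles 5.87, 5.29 and 38.7 in the KO libraries and had no peak in any 4S-A or FL library, so it was weak in KO 1 and KO 2. Leaving out 1 library loosens the rule for a call, so these counts can then only stay or rise. Leaving out FL 3 gave 23 gained and 2 lost, and leaving out KO 1 gave 10 gained. Leaving out KO 2 gave 2 gained and 2 lost, and leaving out KO 3 gave 3 gained and 1 lost. With FL 1 left out, 2 were gained. The share over all regions was not computed with a library left out. On lists of equal length, and with −log10 q of at least 5, no Zfp region was gained.

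In the Mx1-Cre set (2 against 2), 28 of 481 Zfp regions were gained in KO (5.82%, background 13.5%) and 3 of 426 were lost (0.704%, background 2.07%). In the Tie2-Cre set (KO 3 against FL 3), 79 of 725 were gained (10.9%, background 15.3%) and 62 of 708 were lost (8.76%, background 14.4%). Zfp regions thus fell below the background in both directions and in both sets. Gene ends make up more of the Zfp regions than of that background. Of body regions alone, 9.81% were gained and 1.70% lost in the Mx1-Cre set, against 16.4% and 2.29% in other protein-coding genes. In the Tie2-Cre set the shares were 15.9% and 13.4%, against 16.9% and 15.8%. Lost body regions of clustered Zfp genes were above that 2.29% in the Mx1-Cre set, on few regions (2 of 43, 4.65%).

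Between the 4S-A libraries and FL 3, the control of the same set, 82 of 685 Zfp regions with a peak in both 4S-A libraries were gained (12.0%), against a background of 16.4% over all regions (13819 of 84377). Lost were 62 of 708 (8.76%), against a background of 11.7% (10517 of 89572). With 1 control library the comparison has no replicate check. Leaving out 4S-A 1 or 4S-A 2 gave 128 and 149 gained regions. That loosens the rule for a call, and the share over all regions was not computed there. Most of the change was in gene bodies: 72 of 383 body regions (18.8%) and 10 of 302 gene end regions (3.31%) were gained, compared with 17.8% and 5.54% for other protein-coding genes. Lost were 58 of 410 body regions (14.1%) and 4 of 298 gene end regions (1.34%), compared with 12.9% and 4.47% for other protein-coding genes. Body regions of clustered genes were gained in 13 of 80 cases (16.3%) and those of single genes in 59 of 303 (19.5%). Of the 82 gained regions, 54 had a peak in no KO or FL library either (7.88% of 685, background 9.75%). Conversely, 2 of 398 Zfp regions with a peak in all 6 KO and FL libraries had none in either 4S-A library (0.503%, background 1.36%). The 82 gained regions lay in 58 genes and the 62 lost ones in 41, and 12 genes had both.

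Among the gained regions outside chromosome 18, the strongest lay in Zfp316, Zfp345, Zfp442, Zfp957, Zfp512, Zfp27, Zfp960 and Zfp276. The body region of Zfp316 (chr5:143253259-143254994) was at percentiles 80.0 and 85.4 in the 4S-A libraries, and also at 57.1 in KO 3. That of Zfp957 (chr14:79241064-79241492) was at 73.2 and 69.8 in the 4S-A libraries, with no other peak. Zfp960 (chr17:17062999-17064331) gained a gene end region, at 64.0 and 59.3. Zfp276 (chr8:123268416-123269347) was at 62.3 and 55.9, and Zfp512 (chr5:31453700-31454096) at 72.5 and 62.1 with a weak peak in KO 3 at 6.10. With a mean percentile of at least 50 in the 4S-A libraries, 15 of 466 Zfp regions were gained (3.22%, background 4.81%). By class, 13 of 200 body regions (6.5%) and 2 of 266 gene end regions (0.752%) were gained, against 5.47% and 0.876% in other protein-coding genes. None of the 339 Zfp regions with a percentile of at least 70 in FL 3 was lost, where the share over all regions was 0.146% (40 of 27390), and 5 of the 351 with a mean of at least 70 in the 4S-A libraries were gained (1.42%, background 1.88%). Of those 351, 4 of 120 body regions (3.33%) and 1 of 231 gene end regions (0.433%) were gained, against 2.26% and 0.246% in other protein-coding genes. The strongest lost regions outside chromosome 18 lay in Zfp746, Zfp668, Zfp575, Zfp623, Zfp469, Zfp664, Zfp213 and Zfp536. They were at percentiles of 33.6 to 60.2 in FL 3, and each had a peak in at least 1 KO library. That of Zfp746 (chr6:48073073-48074033) was at 47.9, 56.4 and 16.5 in KO, absent from both 4S-A libraries, and at 7.53 in FL 1, absent from FL 2 and at 60.2 in FL 3.

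A pair of loci, picked after their values had been seen, held several of the gained regions. The first is a group of 4 Zfp genes on chromosome 2 (Zfp120, Zfp937, Zfp442 and Zfp345, chr2:150114407-150485063), 1 gene short of the cluster definition. Of its 7 regions, a peak was present in 2, 3 and 4 in the KO libraries, in 7 and 7 in the 4S-A libraries and in 2, 2 and 5 in the FL libraries. The gene end of Zfp345 (chr2:150484939-150485707), whose promoter is the CpG-poor one printed above, was at percentiles 81.2 and 80.4 in the 4S-A libraries and had no peak elsewhere. Inside Zfp442, a body region (chr2:150439066-150439650) was at 75.7 and 79.1 in the 4S-A libraries, also with no peak elsewhere. The gene end of Zfp442 (chr2:150451049-150451918) was at 42.2 in KO 3, at 68.1 and 78.4 in the 4S-A libraries and at 27.7 in FL 3. The gene end of Zfp937 (chr2:150217807-150218423) was at 61.3 and 71.4 in the 4S-A libraries and at 27.7 in FL 3, with no peak in any KO library. At these 4 regions the 4S-A values were above every KO and FL value, and the 4S-A lists were also the longest. The gene end of Zfp120 (chr2:150136285-150137101), with the same CCAATCAG word, was open throughout: it was at 84.5, 90.2 and 94.6 in KO, 96.5 and 96.2 in 4S-A, and 85.4, 89.3 and 96.6 in FL libraries, and there the groups overlapped.

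The second locus is the cluster from Zfp84 to Zfp146 on chromosome 7, with 15 Zfp genes, no other protein-coding gene and 30 regions. A peak was present in 18, 18 and 20 of them in KO, in 28 and 26 in 4S-A and in 15, 17 and 19 in FL libraries. Of the 26 with a peak in both 4S-A libraries, 7 were gained, all of them absent from every KO and FL library. Over all regions, 16.4% were gained and 9.75% were in the 4S-A libraries alone, and the locus was picked for its count. The other 16 clusters had 0 to 2 gained regions each. Of the 7, 4 lay in the body of Zfp568, the strongest (chr7:29988786-29989326) at percentiles 62.0 and 54.6. Another 2 lay in Zfp27, at 72.8 and 50.9 (chr7:29899812-29900331) and at 8.81 and 10.1 (chr7:29900612-29900877), and 1 in Zfp382, at 21.5 and 38.6 (chr7:30125358-30125679). The gene ends in this cluster were open in all groups: those of Zfp566, Zfp382 and Zfp146 lay above percentile 90 in all 8 libraries. The Zfp568 gene end was at 94.6 and 95.3 in the 4S-A libraries, below its lowest value of 96.3 in the FL libraries.

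**Figure D4:**
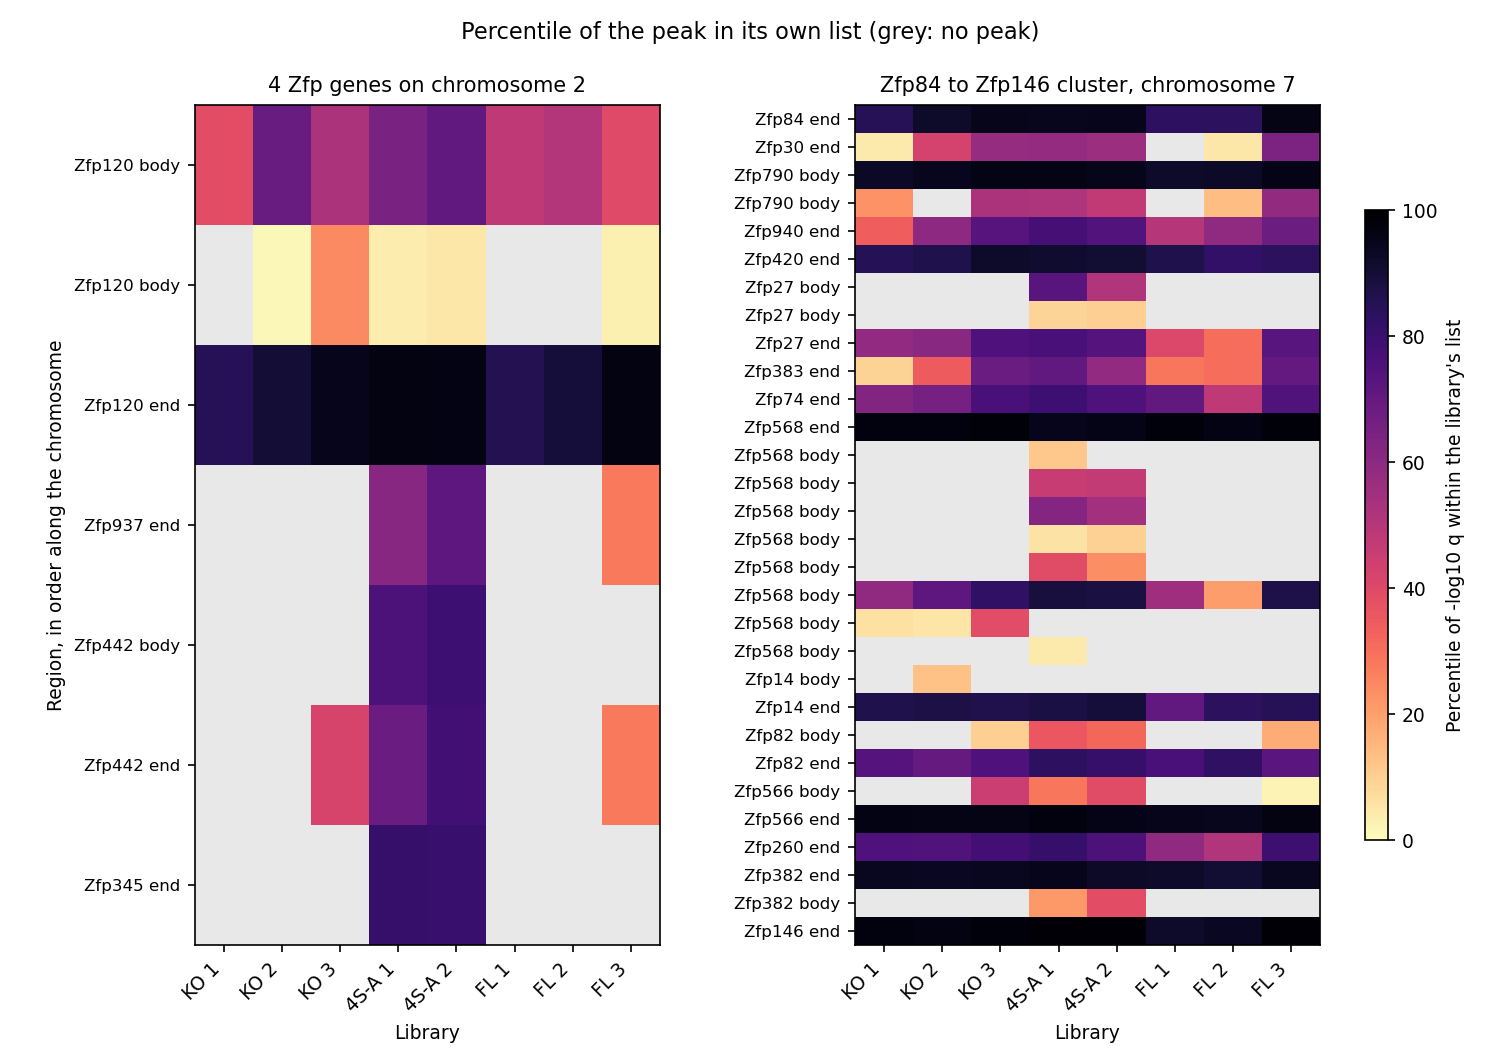
Percentile of each Zfp region's −log10 q within its library's list (color, with grey for no peak), in the chromosome 2 group (left) and in the Zfp84 to Zfp146 cluster (right), with regions in chromosomal order (rows) and libraries in columns. The Zfp345 end and a Zfp442 body region had peaks in the 4S-A libraries alone, at 75.7 to 81.2, and so did 4 Zfp568 body regions in both 4S-A libraries, at 5.65 to 62.0.

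Strength was compared over the 33321 regions with a peak in all 8 libraries, 392 of them Zfp regions, by ranking these regions anew within each library and fitting limma with group and set terms. Each difference is in percentile points of this rank. Between KO and FL no Zfp region passed a Benjamini-Hochberg adjusted p of 0.05 over all regions (background 0%), and 30 had an unadjusted p below 0.05 (7.65%, background 10.2%), 15 higher and 15 lower. Between 4S-A and FL no Zfp region passed (background 0.006%, 2 of 33321), and 40 had an unadjusted p below 0.05 (10.2%, background 10.9%), 21 higher and 19 lower. The median difference of the Zfp regions was 0.294 points between KO and FL and 0.192 points between 4S-A and FL, and it was -0.0710 and -0.0993 points over all regions. A difference of more than 20 points in size was found in 8 Zfp regions between KO and FL (2.04%, all regions 3.802%) and in 23 between 4S-A and FL (5.87%, all regions 8.57%). The median SE of a Zfp region was 4.59 points for KO minus FL and 6.07 points for 4S-A minus FL, so small changes were not detectable with these libraries.

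**Figure D5:**
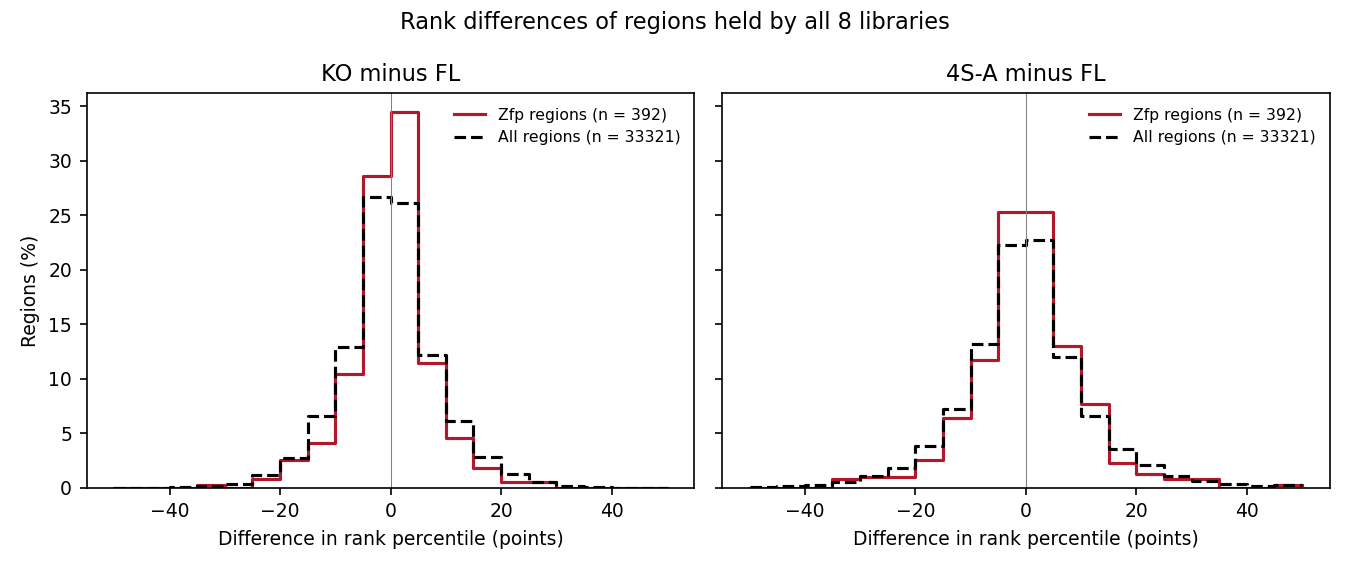
Distribution of limma rank differences (percentile points, x axis, in bins of 5 points) between KO and FL (left) and between 4S-A and FL (right), as percent of regions (y axis), for 392 Zfp regions (red) and all 33321 regions (black, dashed). Both distributions are centered near 0, with Zfp medians of 0.294 and 0.192 points.

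The Zfp regions of smallest p are given although none passed. Between KO and FL these were lower in Zfp536, Zfp764, Zfp799 and Zfp60 and higher in Zfp654, Zfp101, Zfp768 and Zfp629. The body region of Zfp536, a gene known as a repressor of neuronal differentiation (chr7:37437737-37438470), ranked at 65.7, 65.8 and 43.5 in KO, 31.0 and 30.3 in 4S-A, and 88.8, 80.2 and 60.01 in FL libraries. Both 4S-A values and the KO value of the same set were below FL 3, and the KO and FL values overlapped across the sets. Its difference was -18.1 points (SE 3.38, limma adjusted p = 0.32) for KO minus FL and -30.1 points (SE 4.47, limma adjusted p = 0.12) for 4S-A minus FL. The 2 differences share the FL libraries. The body region of Zfp654 (chr16:64801614-64802111) ranked at 53.1, 62.0 and 73.4 in KO, 62.4 and 63.8 in 4S-A, and 31.7, 37.0 and 60.9 in FL libraries, a KO minus FL difference of 19.6 points (SE 4.13, limma adjusted p = 0.32).

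Between 4S-A and FL the smallest p values were of higher regions in Zfp704, Zfp105, Zfp286 and Zfp54, and of lower ones in Zfp536 (2 regions), Zfp57 and Zfp703. The body region of Zfp704 (chr3:9439503-9440028) ranked at 2.51, 6.43 and 18.9 in KO, 41.5 and 49.1 in 4S-A, and 0.761, 0.602 and 8.01 in FL libraries. Its 4S-A values were above all others, and the difference was 34.9 points (SE 4.76, limma adjusted p = 0.11). The body region of Zfp57 (chr17:37009360-37010029) ranked at 31.0, 35.0 and 55.9 in KO, 28.9 and 25.004 in 4S-A, and 44.3, 44.4 and 55.9 in FL libraries, a difference of -32.7 points (SE 4.86, limma adjusted p = 0.12). The gene end of Zfp703 (chr8:26976367-26977401) ranked at 73.2, 76.3 and 75.4 in KO, 60.1 and 63.0 in 4S-A, and 85.3, 85.1 and 81.2 in FL libraries, with a difference of -21.2 points (SE 3.99, limma adjusted p = 0.14). All KO and 4S-A values of Zfp703 were below all FL values.

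The rank of clustered gene ends was higher in the Tie2-Cre set than in the Mx1-Cre set. The 122 gene end regions of clustered Zfp genes with a peak in all 8 libraries had a median rank of 71.6, 70.5 and 76.0 in KO, 77.4 and 76.8 in 4S-A, and 68.8, 68.4 and 74.97 in FL libraries. The KO medians were above the FL medians inside both sets, and both 4S-A medians were above FL 3. In the 122 of single Zfp genes the medians lay between 77.0 and 79.9 in all 8 libraries. The 34 clustered body regions had median ranks of 45.5, 49.5 and 59.9 in KO, 58.8 and 57.9 in 4S-A, and 50.6, 52.4 and 60.8 in FL libraries. The KO value was thus below the FL values in the Mx1-Cre set and close to FL 3 in the Tie2-Cre set, and both 4S-A values were below FL 3. Whether KO minus FL differed between the sets was tested by an interaction term in limma: no Zfp region passed an adjusted p of 0.05 (background 0%), and 46 of 392 had an unadjusted p below 0.05 (11.7%, background 12%).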

How the data were processed

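ATAC-seq was performed on 8 libraries of sorted L-GMPs, for each of which the authors deposited its own narrowPeak list. The submitters' processing notes name Bowtie2 (2.2.9) and Trim Galore (0.4.4), and further MACS2, featureCounts and Picard, with the build mm10. They give neither the role nor the parameters of a tool. The deposited columns hold a score, a fold enrichment (a ratio) at the summit, and −log10 p and −log10 q values, per the layout of the deposited lists, with the position of the summit. None is scaled between libraries, so −log10 q served to rank peaks as percentiles within a list. Lists were merged over all 8 libraries at 1 bp of overlap. Genes came from a RefSeq table of GRCm38.p6 with 21631 protein-coding genes, which holds no exons, so body regions could not be split into exons and introns. Zfp region members and gene lists were chosen with earlier results of these data known. Lost and gained counts, coverage and its excess were computed in Python 3.11.15 with pandas 2.3.3, and exact Clopper-Pearson intervals in scipy 1.17.1. Rank percentiles of the 33321 regions in all 8 libraries were tested with limma 3.58.1 in R 4.3.3, with group and set terms and Benjamini-Hochberg adjustment over all regions. The fit was checked on simulated data. Named regions were those of smallest p (4 per contrast and direction, where none passed), the lost and gained ones (8 strongest where over 10), the 6 strongest gene end and body regions, the fixed role and silencing lists and each cluster, none on chromosome 18. Alternatives were lists of equal length (51510 peaks), −log10 q of at least 5, merging at 100 bp, a 5 kb window, symbols with letters after the digits, other cluster definitions, other rank scales and filters, and leaving out each library. A further alternative, normal scores of the ranks, was chosen after seeing the data.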

Additional observations from a re-analysis of the deposited data

Results flagged for a closer look

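For 4 groupings of Zfp regions, the coverage excess of both KO libraries was below that of both FL libraries in the Mx1-Cre set, and that of KO 3 was above FL 3 in the Tie2-Cre set. The difference between the sets was not tested for coverage. For the coverage excess of all Zfp regions, KO minus FL was -1.20 points in the Mx1-Cre set, where both KO libraries (4.09 and 2.72 points) were below both FL libraries (4.75 and 4.46 points), and 0.937 points in the Tie2-Cre set, where KO 3 had 0.206 points and FL 3 had -0.732 points. The same held for regions of single genes (-0.988 points in the Mx1-Cre set and 1.63 points in the Tie2-Cre set), for body regions of all Zfp genes (-2.30 and 0.906 points) and for body regions of single genes (-1.67 and 1.42 points). For gene end regions of clustered genes the means also had opposite signs (1.11 and -0.481 points), with KO and FL libraries that overlapped in the Mx1-Cre set. The set goes with list length, with the Cre driver and with the genotype of the controls, and these cannot be told apart. The controls were Dek fl/fl in the Mx1-Cre set and Dek+/+ in the Tie2-Cre set.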

How the results depend on the processing

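No Zfp region passed an adjusted p of 0.05 by limma in either comparison, with the whole-list percentile, a mean percentile of at least 20, no set term, normal scores of the ranks (chosen after seeing the data) or any library left out; the number over all regions was at most 4. With the replicate block, KO minus FL gave 0 Zfp regions by limma. For the coverage excess, the mean of same-number differences equals the difference of means by construction (-0.486 points), so the block was no check there. In the Mx1-Cre set, deviations of the same-numbered libraries (1 and 2) did not move together (correlation -0.00017). This does not settle whether they were paired, and KO 3 and FL 3 were not checked. On lists of equal length, the coverage excess of 4S-A minus FL 3 was -1.41 points, clustered minus single gene end coverage was -1.32 points for 4S-A minus FL 3, no region was gained in KO (0) and 34 were gained in 4S-A. With −log10 q of at least 5, no region was gained in KO (0), and clustered minus single body coverage for 4S-A minus FL 3 was 3.03 points. That body value was 2.80 points with 3 or more genes within 1 Mb and 0.144 points with 5 or more within 2 Mb, where the gene end value was -1.38 points. Leaving out 1 library gave -2.26 to 0.581 points of KO minus FL coverage excess and -0.111 to 2.72 points for 4S-A minus FL 3. Clustered minus single coverage then ranged from -3.12 to 0.943 points (gene end) and -5.14 to -1.01 points (body) for KO minus FL, and from -4.33 to -2.96 and -1.95 to -1.02 points for 4S-A minus FL 3. Counts of lost and gained regions ranged from 0 to 2 and 1 to 23 for KO, and from 62 to 91 and 82 to 149 for 4S-A. Leaving out a library can only keep or raise such counts. The lost and gained shares over all regions were not computed under any alternative. The coverage values and counts of 4S-A against FL 3 cannot be had without FL 3. The causes were not tested. Read depth is unknown and limits which weak regions are listed. The other 4S-A and KO values moved by less than the spread between libraries, or by less than 1.5 times for counts.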

Other observations

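Long Zfp genes outside clusters carried many regions. Zfp469 had 30, of which 13 had a peak in all 8 libraries, Zfp704 had 29 with 7 in all 8, and Zfp536 had 27 with 5 in all 8. The density of body regions was 5.99 per 100 kb of gene in Zfp genes and 6.35 per 100 kb in other protein-coding genes, with 3.82 per 100 kb in clustered and 7.21 in single Zfp genes.

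Of the 2 Zfp regions present in all 6 KO and FL libraries and absent from both 4S-A libraries, the one outside chromosome 18 lay in the body of Zfp469 (chr8:122238151-122238607), at percentiles 25.7, 53.9 and 42.7 in KO and 51.6, 37.7 and 16.0 in FL libraries.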
